A study of Homo sapiens with 10 samples.

Results

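KYSE-410, a line grown from a human esophageal squamous cell carcinoma, was transfected with siSHIP2, a small interfering RNA (siRNA) against INPPL1, or with the control siRNA siCT, and its RNA was sequenced 48 h later. The comparison rests on 6 of the 10 libraries of the series, namely the 3 siSHIP2 libraries and the 3 siCT libraries of KYSE-410, and every gene with at least 0.5 CPM in at least 2 of the 6 was tested. CPM is a gene's count scaled so that every library has the same total. The other 4 libraries come from the KYSE-30 line with the same siRNA and the same control, and they enter only where the lines are compared. All 6 cultures were transfected, and no untransfected cells were analysed here. The knockdown rests on a single siRNA, since the other siRNA against INPPL1 that the description of the series names was not analysed here. Replicates carry numbers only, and nothing says that they were separate cultures, so each p-value below rests on a spread between samples that may be technical.

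INPPL1 encodes SHIP2, a phosphatase that removes the 5-phosphate of the lipid phosphatidylinositol 3,4,5-trisphosphate. PI3K makes this lipid at the plasma membrane, where it recruits kinases such as AKT, and SHIP2 also acts as a scaffold in endocytosis and at cell contacts. The questions here were which gene families and cell functions moved with the knockdown, and how far each movement depended on how the libraries were scaled against each other.

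The 6 libraries were alike in depth after the deposited scaling, with 27495 to 28623 genes above 0, and their values step by about 0.05 CPM, so 3 counts correspond to about 0.15 CPM. Mitochondrial transcripts took 1.86%, 2.66% and 2.71% of the counts in the siSHIP2 libraries and 2.09%, 1.97% and 2.33% in the siCT libraries. The first principal component of log2(CPM + 1) held 80.3% of the variance and separated siSHIP2 from siCT. On the next component, which held 7.27%, siSHIP2 replicate 1 stood apart from the other 5 libraries, and it also differed more from siSHIP2 replicates 2 and 3 (chi-square per gene 7.94 and 6.55) than these did from each other (3.29). The siCT libraries differed from each other by 2.40 to 2.77 per gene. Counts over all genes and in the cilium, nucleotide synthesis and guidance families are for this reason also given without siSHIP2 replicate 1, as are those of any other family where they moved by over 1.5 times.

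The targeted gene INPPL1, on the plus strand of chromosome 11 at 72223701 to 72239105 (GENCODE 29, GRCh38, ENSG00000165458), had 44.7, 37.3 and 39.1 CPM in the siSHIP2 libraries, against 107, 108 and 109 CPM in the siCT libraries. Every siSHIP2 library lay below every siCT library. The means were 40.4 ± 3.89 CPM with siSHIP2 and 108 ± 1.16 CPM with siCT (SD, n = 3 each), so that 37.4% of the siCT level was left (log2 change -1.402, SE 0.0628, limma adjusted p = 1.72e-08). With TMM factors, which rescale the libraries so that most genes of middle abundance centre on no change, the log2 change was -1.49 (limma adjusted p = 2.02e-09). All log2 changes here are siSHIP2 minus siCT on log2(CPM + 1), which makes the change of a gene near 0 CPM look smaller than it is.

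The cells were checked against markers of their labelled type. KRT8, a keratin of simple and cultured epithelium, averaged 1053 ± 66.1 CPM with siSHIP2 and 1154 ± 25.2 CPM with siCT (SD, n = 3 each). TP63, a squamous transcription factor gene, averaged 83.9 ± 9.25 CPM with siSHIP2 and 90.5 ± 4.67 CPM with siCT (SD, n = 3 each). KRT17, a keratin of activated squamous cells, averaged 117 ± 7.97 CPM with siSHIP2 and 94.9 ± 4.13 CPM with siCT (SD, n = 3 each). KRT6A, another keratin of such cells, went the other way (1.1 CPM with siSHIP2, 5.26 with siCT, log2 -1.57). The keratin genes KRT13 (log2 -0.56) and KRT15 (log2 -0.30) fell as well. KRT14 (0.566 CPM with siSHIP2, 0.583 with siCT) and the desmosomal plaque gene PKP1 (0.4 CPM with siSHIP2, 0.25 with siCT), both of squamous epithelium, were close to the lowest measurable level. Of 16 squamous and epithelial markers 15 were tested, 3 rose and 9 fell (3 and 11 with TMM factors, 3283 to 3697 CPM with siSHIP2 and 3906 to 4040 CPM with siCT in sum). CDH1, the gene of E-cadherin, was among those that fell (433 CPM with siSHIP2, 789 with siCT, log2 -0.88). Only 5 of 24 markers of fibroblasts, endothelium, leukocytes and red cells could be tested, of which 1 rose (COL1A1, 14.2 CPM with siSHIP2, 10.2 with siCT, log2 0.43) and 1 fell (LUM, 80.4 CPM with siSHIP2, 107 with siCT, log2 -0.41), or 2 with TMM factors and 2 without siCT replicate 1. The summed level of the list was 104 to 113 CPM with siSHIP2 and 119.8 to 144 CPM with siCT. The leukocyte gene PTPRC stayed at or below 0.15 CPM in each of the 6 libraries, and MS4A1 and HBB were at 0. CD68, also listed as a leukocyte marker, was present without a call (12.1 CPM with siSHIP2, 13.1 with siCT). Of 15 glandular and neuroendocrine markers 6 were tested, with 2 higher and 3 lower (1 and 3 with TMM factors, and 1 higher without siSHIP2 replicate 1, siSHIP2 replicate 3, siCT replicate 1 or siCT replicate 2). SYP, 1 of the 2 higher genes, passed the filter through the siSHIP2 libraries alone (0.533 CPM with siSHIP2, 0.233 with siCT). It thus had little room to be called lower. VIL1, an actin bundler of microvilli, was higher (21.4 CPM with siSHIP2, 13.3 with siCT, log2 0.65) and TFF1, a secreted mucosal peptide, lower (2.7 CPM with siSHIP2, 6.46 with siCT, log2 -1.017). Fewer cells of a kind and less RNA per cell cannot be told apart in such bulk RNA, and the part of these markers in the results below was not tested.

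Of 19033 genes tested, 6204 rose, or 32.6%, and 3964 fell, or 20.8% (limma, Benjamini-Hochberg adjusted p under 0.05). With TMM factors 4655 rose, or 24.5%, and 5042 fell, or 26.5%, so the share of higher genes among the calls was 61.0% as deposited and 48.0% with TMM factors. The factors lowered the median log2 change over all tested genes to 0.01, against 0.08 as deposited. Each factor divides a whole library by 1 number, 1.02 to 1.04 for siSHIP2 libraries and 0.96 to 0.98 for siCT libraries. Almost every gene thus moved down by a similar step (median log2 -0.08). A lower call could hardly be lost in this way, so its keeping is no separate check. No gene changed its called direction. All 3964 genes lower on the deposited scale were also lower with TMM factors, and 75.0% of the 6204 higher genes were also higher, so 24.5% of tested genes were higher and 20.8% lower on both scales. A family is therefore read below against both backgrounds. Changes past 1.5-fold by limma's test against that fold were fewer, with 279 higher (1.47%) and 192 lower (1.01%). Without siSHIP2 replicate 1, 10639 genes were called, 6457 of them higher and 4182 lower. A gene near the filter can pass it through 1 group alone and then be called in that direction only. This held for 372 of the 6204 higher and 77 of the 3964 lower genes, some of them members of the families below.

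EGR3, FOSB and TP53INP1 led the rise among protein-coding genes that earlier descriptions of these samples had not named. The genes had a mean of 5 CPM or more over the 6 libraries, which 1 group alone can supply. EGR3 and MEX3B, among others, reached it through siSHIP2, and KRT5 and IL1A, among others, through siCT. Such genes had little room to go the other way. Genes were taken here only where the 3 siSHIP2 and 3 siCT values did not overlap, which held for 11326 of the 19033 tested genes (59.5%). EGR3, a zinc finger factor induced within minutes of growth factor signalling, stood at 11.3, 13.9 and 10.4 CPM in the siSHIP2 libraries, against 1.1, 0.799 and 0.6 CPM in the siCT libraries. FOSB, a subunit of the AP-1 factor, stood at 14.7, 22.9 and 16.1 CPM in the siSHIP2 libraries, against 2.25, 2.2 and 1.95 CPM in the siCT libraries. In both genes the lowest siSHIP2 library was several times above the highest siCT library. TP53INP1, which p53 induces and which takes part in autophagy, averaged 21.8 ± 2.63 CPM with siSHIP2 and 2.95 ± 0.132 CPM with siCT (SD, n = 3 each, log2 2.52, limma adjusted p = 6.66e-09). Next were the mRNA-binding protein gene MEX3B (9.48 CPM with siSHIP2, 0.982 with siCT, log2 2.39) and ABTB1, which encodes an ankyrin repeat and BTB domain protein (15.4 CPM with siSHIP2, 2.5 with siCT, log2 2.23). BACH2, a repressor of the bZIP class known from lymphocytes, averaged 13 CPM with siSHIP2 and 2.23 CPM with siCT (log2 2.11), and PROX1, a homeobox factor known from lymphatic endothelium, averaged 9.04 CPM with siSHIP2 and 1.45 CPM with siCT (log2 2.05). CREBRF, a regulator of CREB3 in nutrient stress, stood at 24.1, 33.3 and 25.5 CPM in the siSHIP2 libraries, against 5.8, 6 and 6.15 CPM in the siCT libraries. CHAC1, which degrades glutathione and is induced by the unfolded protein response, stood at 16.2, 21.3 and 14.8 CPM in the siSHIP2 libraries, against 4.3, 2.95 and 4.3 CPM in the siCT libraries. Replicate 2 was the highest siSHIP2 library in both genes. The remaining higher genes were NATD1 (12.9 CPM with siSHIP2, 2.46 with siCT, log2 1.99), the tubulin carboxypeptidase gene VASH2 (23.2 CPM with siSHIP2, 6.3 with siCT, log2 1.73), CPEB3, which binds cytoplasmic polyadenylation elements (9.76 CPM with siSHIP2, 2.38 with siCT, log2 1.67), the membrane ubiquitin ligase gene MARCH8 (11.3 CPM with siSHIP2, 2.9 with siCT, log2 1.66), IGFBP3, a secreted binder of insulin-like growth factors (75.2 CPM with siSHIP2, 23.2 with siCT, log2 1.66), and the amyloid precursor-like gene APLP1 (9.43 CPM with siSHIP2, 2.33 with siCT, log2 1.65).

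KRT5, FYB1 and AKR1B15 had the largest falls by the same rule, and IL1B and IL1A followed. KRT5, the keratin of basal squamous cells, stood at 4.85, 1.65 and 3.65 CPM in the siSHIP2 libraries, against 14.2, 13.7 and 12.2 CPM in the siCT libraries. IL1B, an inflammatory cytokine, stood at 4.9, 4.05 and 5.09 CPM in the siSHIP2 libraries, against 14.8, 14.3 and 15.6 CPM in the siCT libraries. IL1A, its neighbour on chromosome 2 and also a ligand of the interleukin 1 receptor, stood at 2.75, 2.3 and 2.75 CPM in the siSHIP2 libraries, against 11.1, 8.04 and 7.84 CPM in the siCT libraries. The log2 changes of these 3 genes were -1.79, -1.49 and -1.46 (limma adjusted p = 1.61e-05, 2.22e-07 and 1.66e-06). FYB1, an adaptor protein gene of immune cells, averaged 10.1 ± 1.8 CPM with siSHIP2 and 32.2 ± 1.68 CPM with siCT (SD, n = 3 each, log2 -1.60). AKR1B15, an aldo-keto reductase gene, was lower (2.83 CPM with siSHIP2, 10.5 with siCT, log2 -1.60), but it is a close copy of its neighbour AKR1B10 and the authors' counting may split reads between them. Lower too were GPX3, a glutathione peroxidase of plasma (13.7 CPM with siSHIP2, 38.2 with siCT, log2 -1.42), PCOLCE2, which enhances procollagen processing (11.9 CPM with siSHIP2, 32.2 with siCT, log2 -1.36), and MMP2, a gelatinase (65.9 CPM with siSHIP2, 169 with siCT, log2 -1.35). The actin-severing cofilin gene CFL2 (30.6 CPM with siSHIP2, 77.5 with siCT, log2 -1.31), the cadherin gene CDH23 (14.1 CPM with siSHIP2, 36.3 with siCT, log2 -1.32) and HEG1, a membrane protein of cell junctions (27.8 CPM with siSHIP2, 73.9 with siCT, log2 -1.39), also fell. So did the muscarinic receptor gene CHRM3 (5.1 CPM with siSHIP2, 14.4 with siCT, log2 -1.35), the homeobox gene PITX1 (14.1 CPM with siSHIP2, 36.1 with siCT, log2 -1.302), NT5DC2 (75.5 CPM with siSHIP2, 193 with siCT, log2 -1.35) and the scavenger receptor gene STAB1 (4.86 CPM with siSHIP2, 13.4 with siCT, log2 -1.298). NT5DC2 and STAB1 overlap at their ends on opposite strands, and since the sources used here do not say whether counting used strand, reads from the overlap cannot be told apart. A call with TMM factors in the same direction was part of the rule, so it is no separate check of these genes. All 15 higher and 15 lower genes passed the test against 1.5-fold. They were picked by the largest changes of the same fit, so this is no separate check either.

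**Figure D1:**
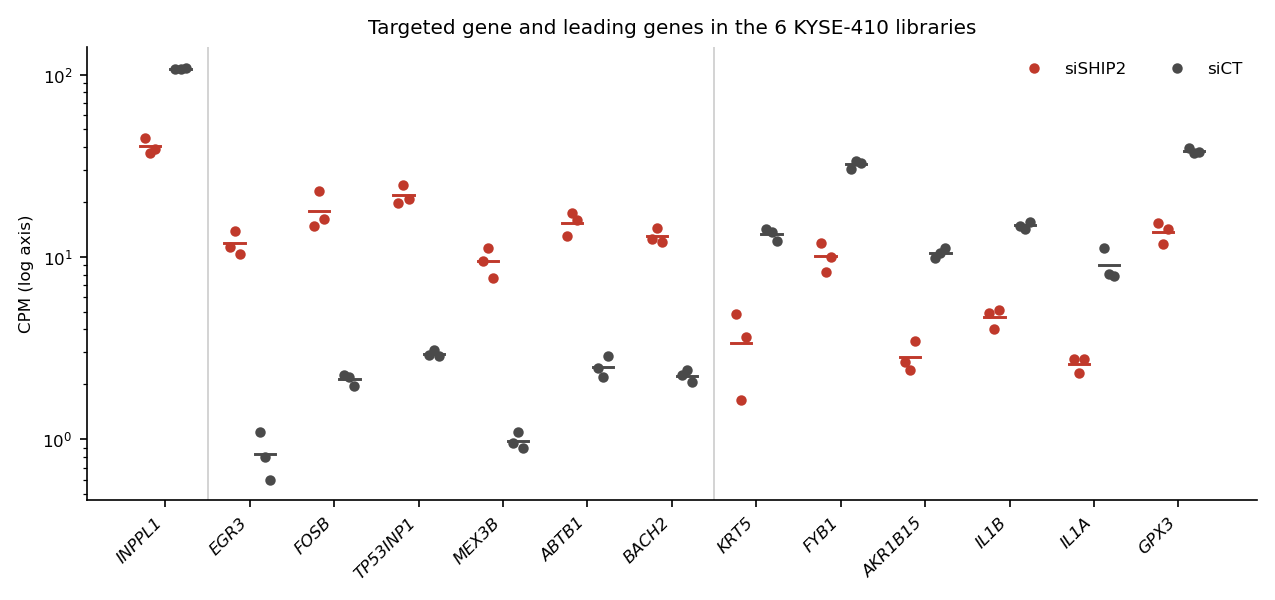
CPM of INPPL1 and of the 6 genes that rose most and the 6 that fell most by the rule above, on a log axis, with siSHIP2 libraries (red, left) beside siCT libraries (grey, right) and a line at each mean of 3. Genes whose points overlap were left out by the rule; INPPL1 stands near 40.4 CPM with siSHIP2 and near 108 CPM with siCT.

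The families were then compared by the number of tested members that rose or fell and by the median log2 change, on both scales. Cilium genes (0.37) and zinc finger genes (0.22) had medians above that of all tested genes (0.08), as did genes of endosomal sorting (0.25), F-box proteins (0.23), Mediator (0.23) and SNARE proteins (0.21). All 6 medians also lay above that of all tested genes with TMM factors (0.01). Aldehyde dehydrogenases (-0.38), guidance cues and receptors (-0.27), nucleotide synthesis (-0.20), nuclear transport receptors (-0.17), protein tyrosine phosphatases (-0.14) and Golgi glycosyltransferases (-0.12) lay below 0 on the deposited scale and lower still with TMM factors. The factors move family medians and the background median by nearly the same step. The place of a family median against the background with TMM factors is therefore no separate check. A pair of counts in brackets after a family gives its higher and lower genes with TMM factors, in this order. Among all tested genes 32.6% were higher and 20.8% lower, but these shares are a low background for most families. Most family members are protein-coding, and calls were more frequent in that type. Of 13741 tested protein-coding genes 5028 rose and 3359 fell (3765 and 4252 with TMM factors). Counts of members are therefore better read against these protein-coding counts on the same scale. On both scales 27.4% of protein-coding genes were higher, which is also their share with TMM factors. On both scales 24.45% were lower, which is also their share as deposited. Family shares stand closer to this background than to that of all tested genes where calls are many. Where a role is given with 0 genes in 1 direction, limma at an unadjusted p under 0.05 and, on whole numbers recovered from the CPM values, edgeR and DESeq2 also found 0 there unless other counts are given.

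**Figure D2:**
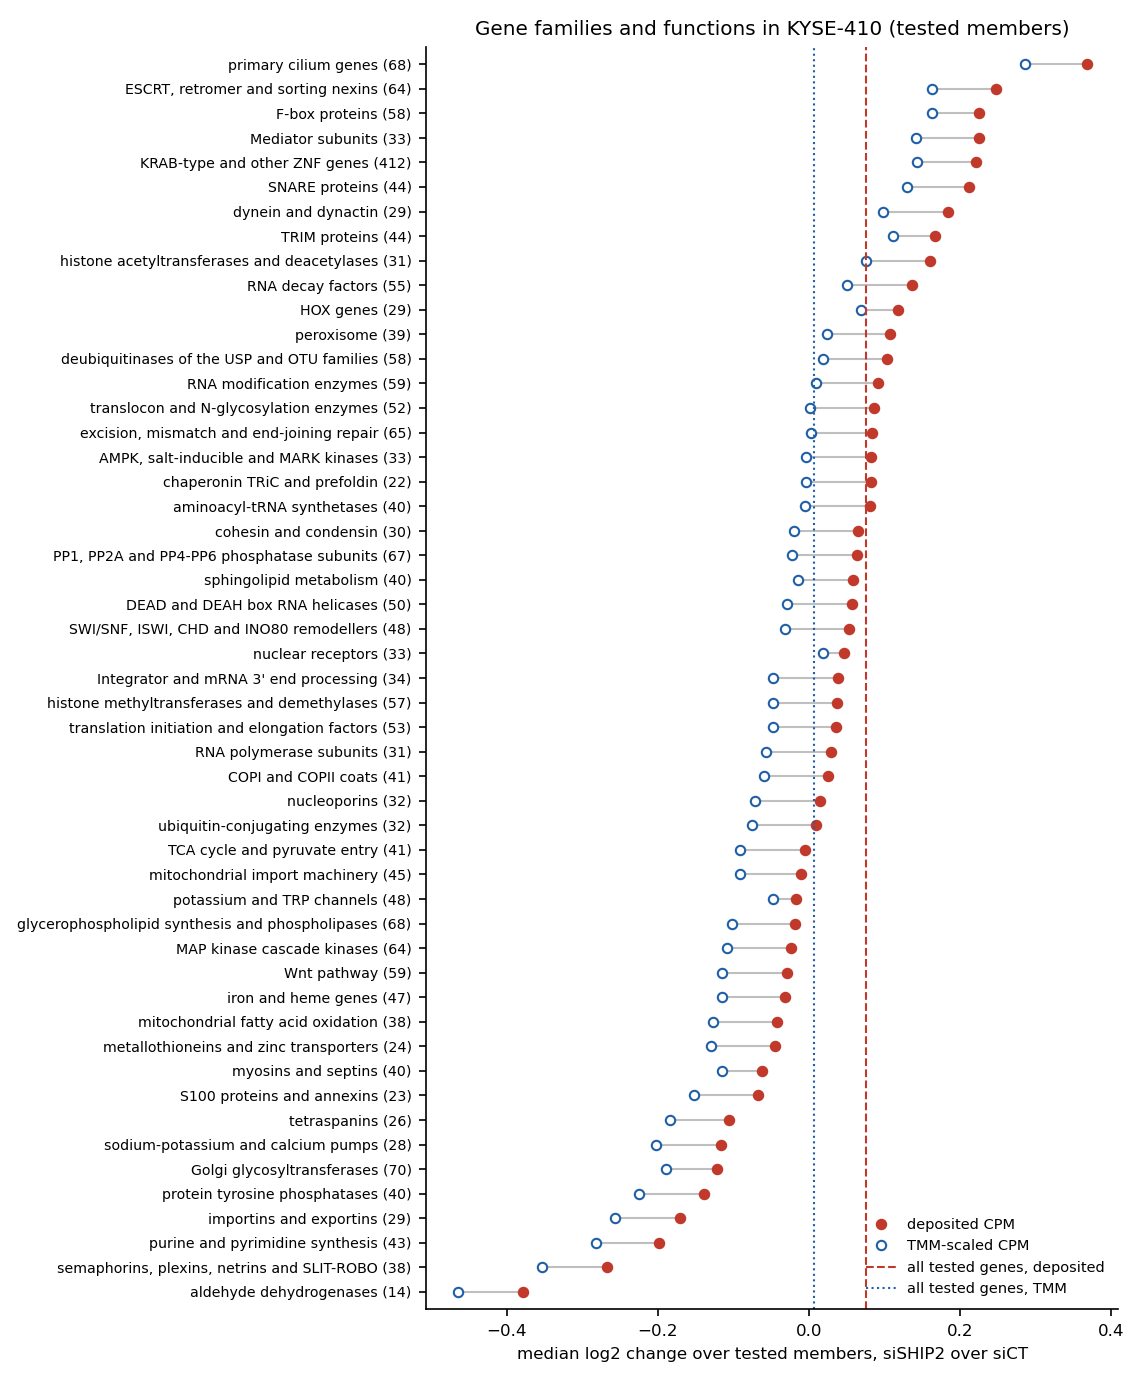
Median log2 change (siSHIP2 over siCT) of the gene families shown, with the number of tested members in brackets, as deposited (filled) and with TMM factors (open); vertical lines mark the medians of all tested genes, 0.08 and 0.01. Cilium genes are at the high end with 0.37 and 0.29, and aldehyde dehydrogenases at the low end with -0.38 and -0.47.

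Most tested genes of the primary cilium rose, though 20 of 68 did not, or 26 with TMM factors. The cilium is a microtubule-based antenna of the cell surface that is built by intraflagellar transport (IFT), in which trains of IFT-B and IFT-A proteins are carried outward by kinesin-2 and back by dynein-2. The BBSome escorts membrane receptors along it, the transition zone gates its base, and Hedgehog signals are received in it. Of 68 tested genes 48 rose and 5 fell, and 42 and 9 with TMM factors, at medians of 0.37 and 0.29. Without siSHIP2 replicate 1 the counts were 47 and 5. The summed level was 2078 to 2170 CPM with siSHIP2 and 1696 to 1742 CPM with siCT. Their level is a measure of mRNA and says nothing of whether cilia were present, which was not measured.

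In IFT-B, the anterograde train, 15 rose and 1 fell of 16 tested (median 0.38, or 0.30 with the same counts after TMM scaling). TTC30B stood at 12.9, 13.7 and 13 CPM in the siSHIP2 libraries, against 6.05, 6.2 and 6.4 CPM in the siCT libraries. TTC30A, its near-identical neighbour, with which it may share reads, stood at 16.5, 17.9 and 15.8 CPM in the siSHIP2 libraries, against 7.4, 9.29 and 8.39 CPM in the siCT libraries. CLUAP1, a further IFT-B protein, stood at 19.2, 19.6 and 19.2 CPM in the siSHIP2 libraries, against 12.1, 11.6 and 10.2 CPM in the siCT libraries. In these 3 genes every siSHIP2 library lay above every siCT library (limma adjusted p = 1.32e-06, 4.63e-06 and 8.79e-06). The exception was IFT57, a peripheral IFT-B subunit, at 38.4, 32.2 and 36.1 CPM in the siSHIP2 libraries, against 57.1, 55.6 and 56.1 CPM in the siCT libraries (log2 -0.65). Of the 6 IFT-A genes 4 rose and 1 fell, or 2 and 1 with TMM factors. WDR19 rose in both (20.9 CPM with siSHIP2, 11.4 with siCT, log2 0.81) and IFT122 fell in both (27 CPM with siSHIP2, 31.7 with siCT, log2 -0.22).

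Among the motors, 7 rose and 1 fell of 8 tested (median 0.61, 6 and 1 with TMM factors). KIF3A, the motor subunit of kinesin-2, averaged 52.2 ± 2.64 CPM with siSHIP2 and 30.2 ± 3.33 CPM with siCT (SD, n = 3 each, log2 0.77). Its partner KIFAP3 (29.7 CPM with siSHIP2, 16.5 with siCT, log2 0.81) and the dynein-2 light intermediate chain gene DYNC2LI1 (27.5 CPM with siSHIP2, 14.8 with siCT, log2 0.85) rose as well, while the dynein-2 intermediate chain gene WDR34 was lower (58.3 CPM with siSHIP2, 66 with siCT, log2 -0.18). Of the BBSome genes and their chaperones, 7 rose and 0 fell of 11 tested, and 6 and 2 with TMM factors, and edgeR called 2 and DESeq2 1 of them lower. BBS5, a BBSome subunit, led with 9.39, 9.79 and 10.9 CPM in the siSHIP2 libraries, against 5.5, 4.75 and 4.75 CPM in the siCT libraries. In the transition zone, 7 rose and 1 fell of 14 tested, and 7 and 3 with TMM factors. MKS1, mutated in Meckel syndrome, stood at 19.6, 20.2 and 19 CPM in the siSHIP2 libraries, against 8.99, 10.1 and 9.39 CPM in the siCT libraries. Its groups lay apart by more than their own spread (log2 0.97, SE 0.0781, limma adjusted p = 8.53e-07). CEP290 fell slightly (40.4 CPM with siSHIP2, 45.4 with siCT, log2 -0.16). Among the Hedgehog genes 2 rose and 1 fell of 6 tested (1 and 1 with TMM factors, medians 0.14 and 0.05), with the transcription factor gene GLI3 lower (12.3 CPM with siSHIP2, 17.9 with siCT, log2 -0.51) and the receptor gene PTCH1 higher (24.2 CPM with siSHIP2, 19.9 with siCT, log2 0.27). Of the other cilium genes 6 rose and 0 fell of 7 tested (5 and 0 with TMM factors), among them OFD1, a protein of the basal body (43.9 CPM with siSHIP2, 28.3 with siCT, log2 0.61).

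The promoters of cilium genes are shown because RFX transcription factors, known regulators of ciliary genes, bind the X-box, of which GTTGCC, or GGCAAC on the other strand, is a core. Promoters ran from 250 bases before to 50 bases after the annotated start (RefSeq, GRCh38.p14), and 53 of the 68 tested genes had an entry. The core, on either strand, occurred in 24 of the 53 (45.3%), against 1344 of 10494 promoters of tested protein-coding genes (12.8%) and 1992 of 15843 of all protein-coding genes (12.6%). It stood in 19 of the 37 promoters of genes that rose (51.4%), 1 of the 3 of genes that fell (33.3%) and 4 of the 13 of genes with no call (30.8%). Such a match is a description of the letters and not evidence of binding. The windows below run 5′ to 3′ on the strand of the gene and end at or before the start, with each core in capitals, for 6 genes that rose and, last, for IFT122, which fell.
MKS1, chr17:58219256-58219319, minus strand: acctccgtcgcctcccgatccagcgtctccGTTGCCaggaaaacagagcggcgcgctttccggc
BBS5, chr2:169479450-169479493, plus strand: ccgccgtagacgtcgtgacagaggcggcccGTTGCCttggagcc
DYNC2LI1, chr2:43774001-43774038, plus strand: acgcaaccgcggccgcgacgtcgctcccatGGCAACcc
CLUAP1, chr16:3500952-3501003, plus strand: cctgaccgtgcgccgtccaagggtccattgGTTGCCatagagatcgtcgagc
TMEM231, chr16:75556257-75556322, minus strand: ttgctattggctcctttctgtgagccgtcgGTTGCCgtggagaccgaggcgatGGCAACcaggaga
OFD1, chrX:13734645-13734710, plus strand: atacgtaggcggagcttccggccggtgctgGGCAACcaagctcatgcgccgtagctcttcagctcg
IFT122, chr3:129440182-129440223, plus strand: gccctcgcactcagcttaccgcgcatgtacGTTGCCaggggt
TMEM231, a transition zone gene (7.83 CPM with siSHIP2, 5.55 with siCT, log2 0.44), holds the core once on each strand in its window. OFD1, described above, holds 2 cores before its start, of which the window shows 1. Genes with a core thus include MKS1 and BBS5, among the larger rises of the family, and a gene that fell.

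**Figure D3:**
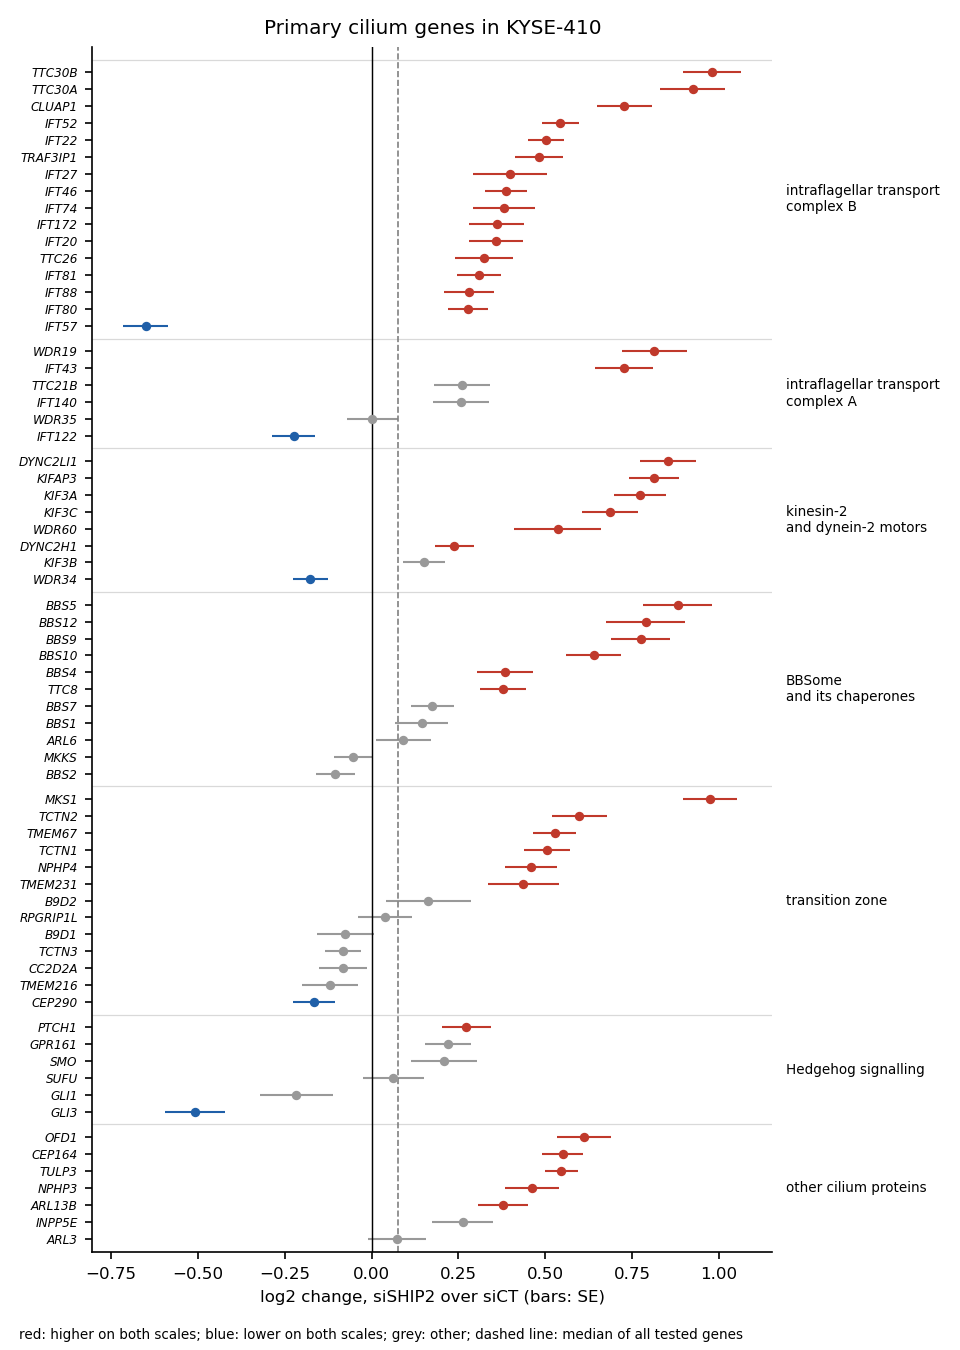
Log2 change (siSHIP2 over siCT, bars are SE) of tested cilium genes, grouped by role, in red where higher on both scales, blue where lower on both and grey otherwise. Of the 16 IFT-B genes 15 are red, and IFT57 at -0.65 is the lowest point of the plot.

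Zinc finger genes with a ZNF name, most of them C2H2 factors and many with a KRAB domain that recruits the repressor TRIM28 to transposons and other targets, rose in small steps. Of 509 such genes 412 passed the filter on low values, 216 of them rose and 34 fell, at a median of 0.22. With TMM factors 172 rose and 48 fell, at a median of 0.14. Only 4 passed the test against 1.5-fold, all higher. Many of these genes lie in clusters on chromosome 19, so those were counted apart. On chromosome 19, 101 of 190 rose and 14 fell (76 and 20 with TMM factors, medians 0.22 and 0.15), and on other chromosomes 115 of 222 rose and 20 fell (96 and 28 with TMM factors). The other 821 tested protein-coding genes of chromosome 19 had 279 higher and 188 lower (202 and 245 with TMM factors) at a median of 0.08. Many ZNF genes are similar in sequence, and reads may be split among them.

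ZNF862 stood at 3.6, 4.95 and 2.8 CPM in the siSHIP2 libraries, against 0.949, 1.05 and 1.6 CPM in the siCT libraries. ZNF253, of a chromosome 19 cluster, stood at 15.1, 13 and 13.7 CPM in the siSHIP2 libraries, against 6.75, 5.65 and 6.6 CPM in the siCT libraries. ZNF18 stood at 7.1, 9.64 and 7.99 CPM in the siSHIP2 libraries, against 3.35, 3.45 and 3.85 CPM in the siCT libraries. The siSHIP2 and siCT values of these 3 genes, which had the largest rises of the family, did not overlap (log2 1.11, 1.03 and 1.016; limma adjusted p = 9.29e-05, 2.49e-06 and 1.19e-05). The largest falls were those of ZNF771 (11.1 CPM with siSHIP2, 19.8 with siCT, log2 -0.78), ZNF518B (25 CPM with siSHIP2, 41.2 with siCT, log2 -0.70) and ZNF860 (4.25 CPM with siSHIP2, 7.35 with siCT, log2 -0.68).

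**Figure D4:**
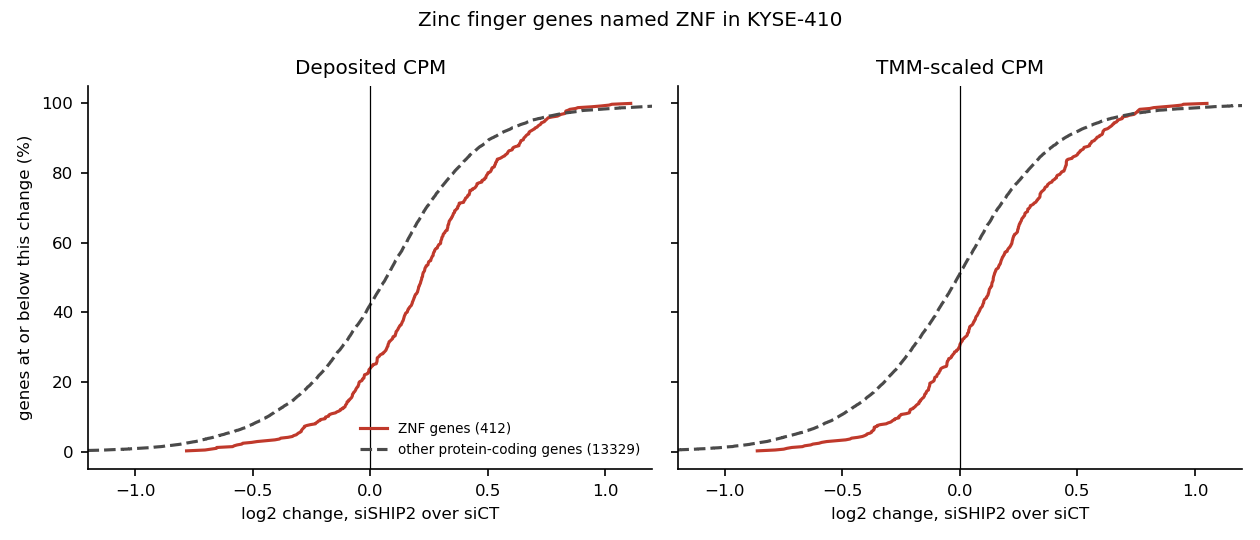
Cumulative share (%) of the 412 tested ZNF genes (red) and of the other tested protein-coding genes (dashed grey) at or below each log2 change, siSHIP2 over siCT, as deposited (left) and with TMM factors (right). The ZNF curve lies to the right of the other over most of both panels, with medians of 0.22 and 0.14.

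Endosomal sorting genes formed a further group with many rises. ESCRT complexes bud vesicles into endosomes and close membrane necks, retromer with the WASH actin complex returns cargo to the surface or the Golgi, and sorting nexins bind phosphoinositides on endosomes. Of 64 tested genes 39 rose and 10 fell (33 and 12 with TMM factors, medians 0.25 and 0.16). Of the membrane-cutting layer, made of ESCRT-III, VPS4 and ALIX, 10 of 15 rose and 0 fell on both scales. CHMP1B, an ESCRT-III subunit, stood at 167, 188 and 179.9 CPM in the siSHIP2 libraries, against 66.5, 68.8 and 68.4 CPM in the siCT libraries. Each siSHIP2 library held more than each siCT library by a wide gap (log2 1.38, SE 0.0507, limma adjusted p = 3.29e-09). In ESCRT-0, -I and -II, 10 of 15 rose and 2 fell (7 and 3 with TMM factors), among them the ESCRT-I gene TSG101 at 160.2, 184 and 175 CPM in the siSHIP2 libraries, against 99.7, 99.9 and 105 CPM in the siCT libraries. Retromer and WASH genes had 8 of 10 higher and 2 lower (7 and 2). WASHC2A (53 CPM with siSHIP2, 31 with siCT, log2 0.75) and WASHC2C (28.7 CPM with siSHIP2, 16.1 with siCT, log2 0.80), which are near-identical copies that may share reads, both rose. Sorting nexins were divided, with 11 of 24 higher and 6 lower (9 and 7 with TMM factors). SNX15 rose (28.3 CPM with siSHIP2, 16.9 with siCT, log2 0.71), and SNX6 (54.8 CPM with siSHIP2, 81.5 with siCT, log2 -0.57), SNX25 (7.54 CPM with siSHIP2, 11.6 with siCT, log2 -0.56) and SNX13 (40.8 CPM with siSHIP2, 57.9 with siCT, log2 -0.50) fell.

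SNARE proteins fuse vesicles with their target membranes, and 25 of 44 tested genes rose while 5 fell (20 and 6 with TMM factors, median 0.21 and 0.13). Lower members numbered 3 when any 1 of the siCT replicates was left out. STX16, a syntaxin of the trans-Golgi, stood at 240.3, 297 and 257 CPM in the siSHIP2 libraries, against 151, 149.6 and 166 CPM in the siCT libraries. The groups were separate. STX11 (1.92 CPM with siSHIP2, 0.7 with siCT, log2 0.77) and the endosomal syntaxin gene STX12 (60.2 CPM with siSHIP2, 35.9 with siCT, log2 0.73) were higher too, and VAMP5 (3.63 CPM with siSHIP2, 6.35 with siCT, log2 -0.67), SEC22B of the early secretory pathway (38.2 CPM with siSHIP2, 57.6 with siCT, log2 -0.58) and STX2 (12 CPM with siSHIP2, 15.5 with siCT, log2 -0.34) lower. Of dynein and dynactin genes, which move cargo toward microtubule minus ends, 17 of 29 rose and 8 fell (12 and 9). DYNC1I2, an intermediate chain, was higher (168 CPM with siSHIP2, 109.5 with siCT, log2 0.61), DCTN4 of dynactin likewise (108 CPM with siSHIP2, 76 with siCT, log2 0.50), and the light chain gene DYNLT3 lower (32.7 CPM with siSHIP2, 50.9 with siCT, log2 -0.63).

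Mediator connects transcription factors with RNA polymerase II. Of 33 subunit genes 21 rose and 6 fell, and 14 and 8 with TMM factors. The largest rises belonged to the head subunits MED6 (50.7 CPM with siSHIP2, 29.7 with siCT, log2 0.75), MED20 (120.5 CPM with siSHIP2, 71.4 with siCT, log2 0.75) and MED18 (26.6 CPM with siSHIP2, 15.6 with siCT, log2 0.73). MED20 stood at 116, 126 and 119 CPM in the siSHIP2 libraries, against 72.1, 73.2 and 69.1 CPM in the siCT libraries, without overlap. Of the kinase module, CDK8 (0.28), its copy CDK19 (0.28) and the cyclin gene CCNC (0.26) rose by these log2 changes, whereas MED12 (31.4 CPM with siSHIP2, 43.5 with siCT, log2 -0.46) and MED13 (106 CPM with siSHIP2, 135 with siCT, log2 -0.34) fell. MED22, of the head, fell as well (51.9 CPM with siSHIP2, 65.3 with siCT, log2 -0.33).

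F-box proteins choose substrates for the SCF ubiquitin ligase. Of 58 tested 32 rose and 6 fell (23 and 11 with TMM factors). FBXL20 stood at 32.3, 38.2 and 29.4 CPM in the siSHIP2 libraries, against 10.3, 10.7 and 11.5 CPM in the siCT libraries. Its siSHIP2 values were all well above its siCT values (log2 1.52, limma adjusted p = 9.66e-08), and FBXO8 (32 CPM with siSHIP2, 14.2 with siCT, log2 1.11) and FBXO25 (5.18 CPM with siSHIP2, 2.23 with siCT, log2 0.94) followed. CCNF, the cyclin F gene, whose protein acts in G2 (62.8 CPM with siSHIP2, 100.2 with siCT, log2 -0.67), FBXL17 (21.8 CPM with siSHIP2, 34 with siCT, log2 -0.63) and FBXO17 (0.583 CPM with siSHIP2, 1.37 with siCT, log2 -0.58) were lower. Among the TRIM proteins, a family of RING ubiquitin ligases, 20 of 44 rose and 10 fell (19 and 13). TRIM36 (18.9 CPM with siSHIP2, 8.33 with siCT, log2 1.09), TRIM23 (41 CPM with siSHIP2, 19.8 with siCT, log2 1.018) and TRIM52 (27.1 CPM with siSHIP2, 14.8 with siCT, log2 0.84) were the highest, and TRIM6 (11.7 CPM with siSHIP2, 23.3 with siCT, log2 -0.95), TRIM47 (8.66 CPM with siSHIP2, 13.7 with siCT, log2 -0.60) and TRIM29 (103 CPM with siSHIP2, 151 with siCT, log2 -0.55) the lowest.

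HOX genes, which encode homeobox factors of body position, were low in level, and 29 of 39 were tested. Of these 10 rose and 2 fell (10 and 4 with TMM factors). HOXB13 stood at 3.3, 4.2 and 4.25 CPM in the siSHIP2 libraries, against 0.75, 0.799 and 0.5 CPM in the siCT libraries. HOXA5 stood at 14.8, 15.6 and 16.8 CPM in the siSHIP2 libraries, against 6.05, 6.6 and 7.79 CPM in the siCT libraries. Neither gene overlapped between the groups (log2 1.54 and 1.104, limma adjusted p = 8.53e-07 and 1.77e-06). HOXC6 (7.96 CPM with siSHIP2, 2.93 with siCT, log2 1.187) and HOXC9 (7.16 CPM with siSHIP2, 2.9 with siCT, log2 1.06) rose as well, but HOXC9 lies within the annotated span of HOXC6, so their reads may not be separate. HOXA13 (5.38 CPM with siSHIP2, 7.64 with siCT, log2 -0.44) and HOXC13 (16.3 CPM with siSHIP2, 19.9 with siCT, log2 -0.27), of the posterior end of their clusters, fell, whereas HOXB13, also of that end, rose.

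RNA decay factors had 25 of 55 higher and 7 lower (18 and 11 with TMM factors). BTG1, which recruits the CCR4-NOT deadenylase and restrains proliferation, stood at 139, 184 and 159 CPM in the siSHIP2 libraries, against 61.4, 61.3 and 61.7 CPM in the siCT libraries. TOB1, a related antiproliferative protein, stood at 22.5, 19.2 and 21.7 CPM in the siSHIP2 libraries, against 37.4, 41.3 and 38.6 CPM in the siCT libraries. These members of the BTG/TOB family thus went opposite ways, each without overlap (log2 1.36 and -0.86). The decapping enzyme gene DCP2 (145 CPM with siSHIP2, 84.2 with siCT, log2 0.78) and the deadenylase subunit gene PAN2 (90.4 CPM with siSHIP2, 55.5 with siCT, log2 0.69) rose. Other falls included those of the exosome genes EXOSC7 (21.3 CPM with siSHIP2, 30.8 with siCT, log2 -0.51) and DIS3L (28.2 CPM with siSHIP2, 38.2 with siCT, log2 -0.42). Histone acetyltransferase and deacetylase genes numbered 15 higher and 7 lower of 31, but 9 and 8 with TMM factors. HDAC5 rose (20.2 CPM with siSHIP2, 8.6 with siCT, log2 1.15), as did SIRT6 (22.7 CPM with siSHIP2, 13.3 with siCT, log2 0.72) and HDAC9 (13.7 CPM with siSHIP2, 9.71 with siCT, log2 0.46), and the acetyltransferase genes CREBBP (73.1 CPM with siSHIP2, 117 with siCT, log2 -0.67) and NAA60 (28.8 CPM with siSHIP2, 39.9 with siCT, log2 -0.46) and the deacetylase gene HDAC4 (16.2 CPM with siSHIP2, 21.3 with siCT, log2 -0.39) fell.

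Most tested genes of nucleotide synthesis fell, by small amounts. Purines are built on ribose phosphate up to IMP, which is then turned into AMP and GMP; pyrimidines are built as a ring first; and salvage enzymes recover bases and nucleosides. Of 43 tested genes 6 rose and 27 fell (4 and 29 with TMM factors, medians -0.20 and -0.28), and the summed level was 3693 to 3825 CPM with siSHIP2 and 4223 to 4358 CPM with siCT. Without siSHIP2 replicate 1 the counts were 6 and 24. 

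On the de novo purine route 6 of 8 genes fell and 0 rose, or 7 and 0 with TMM factors. PFAS, which makes an amidine on the way to IMP, stood at 54.2, 53.7 and 49.4 CPM in the siSHIP2 libraries, against 75.9, 75.2 and 71.6 CPM in the siCT libraries. PRPS2, which makes the activated ribose phosphate, stood at 63.9, 49.9 and 57.2 CPM in the siSHIP2 libraries, against 75.9, 81 and 77.9 CPM in the siCT libraries. Both were lower in every siSHIP2 library than in any siCT library. PPAT, the committing enzyme, GART and PAICS also fell (log2 -0.30, -0.20 and -0.28), while ATIC, which closes the ring, was at log2 -0.01 with no call. From IMP onward 4 of 5 genes fell. IMPDH2, the rate-limiting enzyme of GMP synthesis, stood at 178, 153 and 173 CPM in the siSHIP2 libraries, against 238, 227 and 227 CPM in the siCT libraries (log2 -0.46, limma adjusted p = 1.89e-05). On the pyrimidine route, DHODH of the mitochondrial membrane (8.96 CPM with siSHIP2, 13.3 with siCT, log2 -0.53), CTPS1 (75.6 CPM with siSHIP2, 101 with siCT, log2 -0.42) and the multifunctional enzyme gene CAD (151 CPM with siSHIP2, 176 with siCT, log2 -0.22) fell, while CTPS2, the other CTP synthase, rose (25.1 CPM with siSHIP2, 20.2 with siCT, log2 0.30). UMPS was higher as deposited (log2 0.19) and not called with TMM factors (log2 0.10). Salvage enzymes were divided, with 2 of 10 higher, 4 lower and 5 lower with TMM factors. The uridine phosphorylase gene UPP1 (172 CPM with siSHIP2, 131 with siCT, log2 0.38) and the deoxycytidine kinase gene DCK (39.3 CPM with siSHIP2, 32 with siCT, log2 0.29) rose. UCK2, a uridine-cytidine kinase gene, was lower (46.7 CPM with siSHIP2, 63.4 with siCT, log2 -0.43). The nucleotidase genes NT5E, which encodes the surface enzyme CD73 (88.1 CPM with siSHIP2, 135 with siCT, log2 -0.61), and NT5C2 (68.2 CPM with siSHIP2, 105 with siCT, log2 -0.61) had the largest falls of the list. NME4 rose (4 CPM with siSHIP2, 2.73 with siCT, log2 0.42) and NME1 (167 CPM with siSHIP2, 189 with siCT, log2 -0.17) and NME2 (281 CPM with siSHIP2, 310.3 with siCT, log2 -0.14) fell, although the last 2 share sequence and a readthrough locus, so their reads may not be separate.

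Promoters of this route are shown because MYC, a known activator of nucleotide synthesis, binds the E-box CACGTG, which reads the same on both strands. It occurred in 7 of 39 promoters of the list (17.9%), against 1028 of 10494 promoters of tested protein-coding genes (9.8%). It stood in 4 of 25 promoters of genes that fell (16%), 1 of 6 of genes that rose (16.7%) and 2 of 8 of genes with no call (25%). In the lines below, from the same promoters and with the E-box in capitals, DHODH and PPAT fell and DCK rose.
DHODH, chr16:72008555-72008620, plus strand: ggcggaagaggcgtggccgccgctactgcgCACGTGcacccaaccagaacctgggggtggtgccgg
PPAT, chr4:56435762-56435827, minus strand: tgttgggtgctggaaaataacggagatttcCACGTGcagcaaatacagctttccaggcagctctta
DCK, chr4:70993503-70993568, plus strand: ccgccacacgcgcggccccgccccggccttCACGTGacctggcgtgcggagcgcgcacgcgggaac

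Axon guidance genes, which outside the nervous system act in adhesion and vessel growth, fell more often than they rose. Semaphorins signal through plexins, those of class 3 with neuropilins as co-receptors, netrins through DCC, NEO1 and UNC5 proteins, and SLIT proteins through ROBO receptors. Of 38 tested genes 8 rose and 22 fell (7 and 23 with TMM factors, medians -0.27 and -0.35). Without siSHIP2 replicate 1 the counts were 8 and 20.

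Of the secreted class 3 semaphorins 5 of 6 fell and 0 rose, with SEMA3B (64.7 CPM with siSHIP2, 107 with siCT, log2 -0.72) the lowest. Both neuropilin genes fell. NRP2 stood at 29.2, 18.6 and 24.2 CPM in the siSHIP2 libraries, against 56.7, 62 and 55.6 CPM in the siCT libraries. NRP1 stood at 60.9, 61.7 and 56.2 CPM in the siSHIP2 libraries, against 78.3, 74.3 and 67 CPM in the siCT libraries. The groups were apart in both, and the change was larger in NRP2 (log2 -1.26 and -0.29). Of 8 plexin genes 6 fell and 0 rose. PLXNA2 stood at 87.2, 53.3 and 63 CPM in the siSHIP2 libraries, against 137, 150.3 and 144 CPM in the siCT libraries. Its siSHIP2 replicate 1 was the highest of its group and still below each siCT library. PLXND1 (21.5 CPM with siSHIP2, 40.1 with siCT, log2 -0.87) and PLXNA1 (178 CPM with siSHIP2, 245 with siCT, log2 -0.46) were lower, and PLXNC1 (0.09) and PLXNA3 (0.02) had no call at these log2 changes. Membrane-bound semaphorins went both ways, with 4 of 11 higher and 4 lower (5 lower with TMM factors). SEMA4B (38.4 CPM with siSHIP2, 89.5 with siCT, log2 -1.202) and SEMA5A (55.7 CPM with siSHIP2, 103 with siCT, log2 -0.90) fell. SEMA6C stood at 3.25, 4.25 and 3.1 CPM in the siSHIP2 libraries, against 0.4, 0.55 and 0.45 CPM in the siCT libraries, and SEMA7A, which is anchored in the membrane by a lipid, at 107, 129.8 and 105 CPM in the siSHIP2 libraries, against 70.1, 62.4 and 61 CPM in the siCT libraries; every siSHIP2 value was above every siCT value in both. SEMA4C (35.3 CPM with siSHIP2, 21.9 with siCT, log2 0.66) and SEMA4G (3.81 CPM with siSHIP2, 2.43 with siCT, log2 0.48) rose too. Among netrins, RGM ligands and their receptors, the genes RGMB (26.2 CPM with siSHIP2, 18.8 with siCT, log2 0.46) and NEO1 (74.8 CPM with siSHIP2, 60.4 with siCT, log2 0.30) rose. On the lower side were NTN1 (15.3 CPM with siSHIP2, 22 with siCT, log2 -0.51), NTN4 (111 CPM with siSHIP2, 144 with siCT, log2 -0.37) and UNC5B (17.1 CPM with siSHIP2, 22.1 with siCT, log2 -0.36). DCC (0.516 CPM with siSHIP2, 0.15 with siCT, log2 0.40) and SEMA6C passed the filter through the siSHIP2 libraries alone, and UNC5C (0.383 CPM with siSHIP2, 0.783 with siCT, log2 -0.37) through the siCT libraries alone, so these 3 calls had little room to go the other way. ROBO1, the SLIT receptor gene, stood at 37, 27.1 and 26.1 CPM in the siSHIP2 libraries, against 55.6, 63 and 55.2 CPM in the siCT libraries. Of the intracellular mediators DPYSL3 was higher on the deposited scale (log2 0.20) and not called with TMM factors, and DPYSL2 had no call (log2 0.15).

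**Figure D5:**
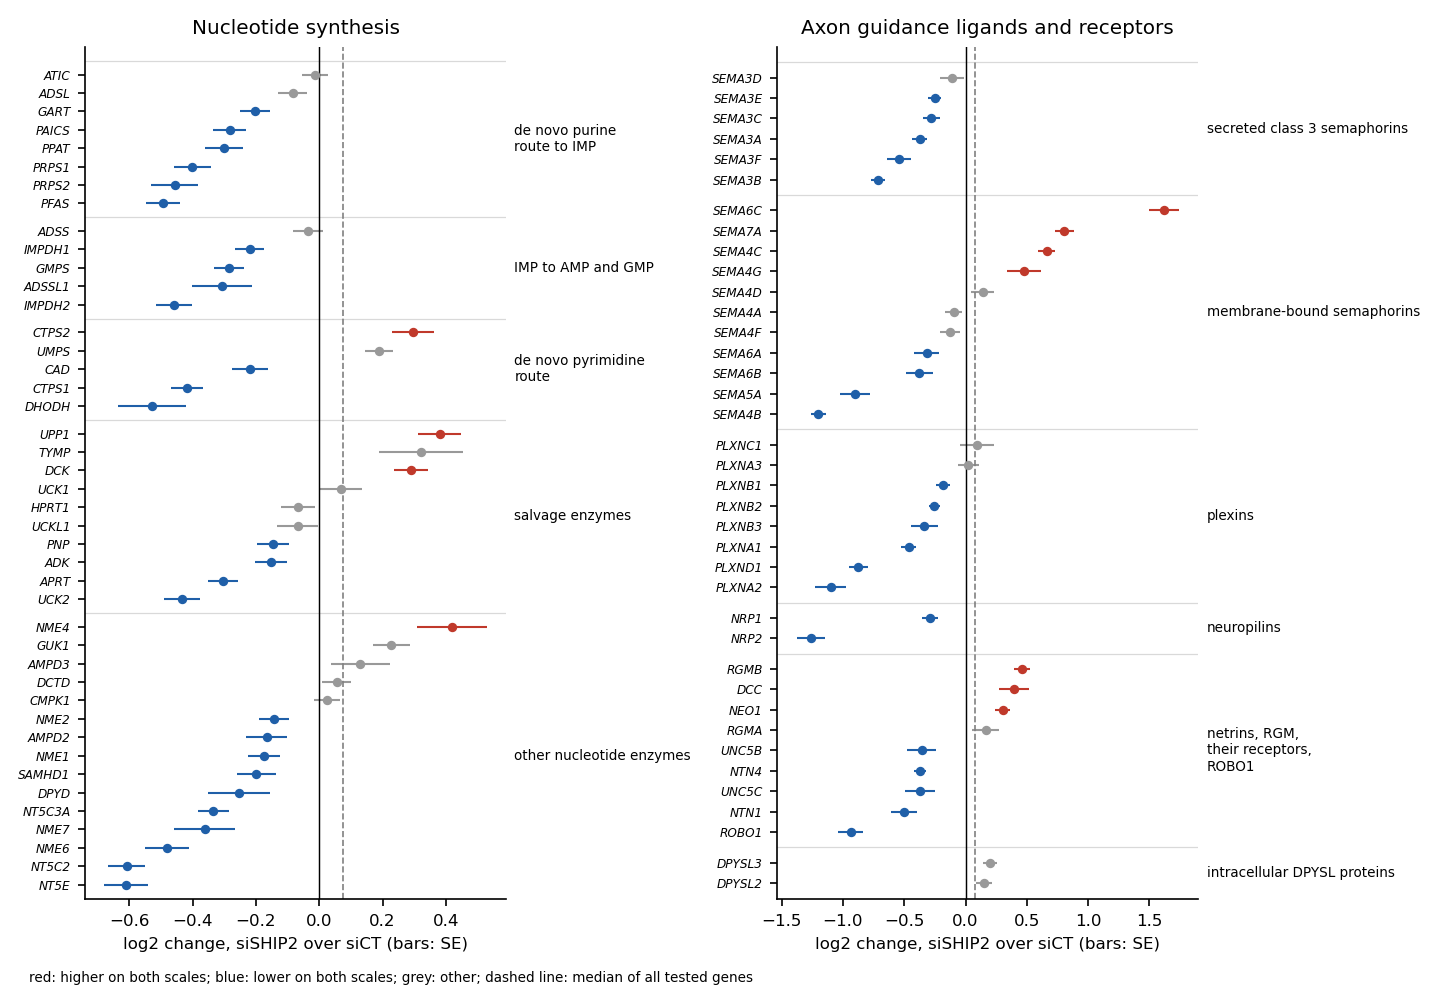
Log2 change (siSHIP2 over siCT, bars are SE) of the tested genes of nucleotide synthesis (left, 43) and axon guidance (right, 38) by role, in red where higher on both scales, blue where lower on both and grey otherwise. The horizontal axes differ in range: nucleotide genes lie between -0.61 and 0.42, guidance genes between -1.26 and 1.62.

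Importins, exportins and the RAN cycle, which carry proteins and RNA through nuclear pores, had 5 of 29 genes higher and 18 lower (3 and 19 with TMM factors, medians -0.17 and -0.26). IPO4, an importin of histones and ribosomal proteins, stood at 43.1, 37.8 and 41.7 CPM in the siSHIP2 libraries, against 65.7, 62.3 and 59.1 CPM in the siCT libraries. RCC1, the exchange factor of RAN on chromatin, stood at 162, 142 and 159 CPM in the siSHIP2 libraries, against 220.5, 208 and 207 CPM in the siCT libraries. Both fell without overlap, as did XPO6, the exportin of actin (88.4 CPM with siSHIP2, 121 with siCT, log2 -0.45). Of the main importin pair, KPNB1 fell (497 CPM with siSHIP2, 589 with siCT, log2 -0.24) and so did KPNA2 (324 CPM with siSHIP2, 379.8 with siCT, log2 -0.23), while the importin alpha genes KPNA5 (35.7 CPM with siSHIP2, 24 with siCT, log2 0.55), KPNA6 (167 CPM with siSHIP2, 126 with siCT, log2 0.41) and KPNA1 (175 CPM with siSHIP2, 146 with siCT, log2 0.26) rose. XPO1, the main exportin, had no call (507 CPM with siSHIP2, 509.6 with siCT, log2 -0.01). Nucleoporins, the pore itself, were divided, with 10 of 32 higher and 13 lower (7 and 15). NUP58 (68.5 CPM with siSHIP2, 112 with siCT, log2 -0.71), NUP88 (73.5 CPM with siSHIP2, 111 with siCT, log2 -0.59) and NDC1 (114 CPM with siSHIP2, 162 with siCT, log2 -0.51) fell. The largest rises were those of NUP133 (96.7 CPM with siSHIP2, 74 with siCT, log2 0.38), GLE1 (116 CPM with siSHIP2, 91.7 with siCT, log2 0.33) and RANBP2 (277 CPM with siSHIP2, 206 with siCT, log2 0.42), which has close copies.

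Protein tyrosine phosphatases, the counterparts of tyrosine kinases, had 7 of 40 higher and 20 lower (4 and 23 with TMM factors). Of the receptor types 0 of 14 rose and 9 fell (0 and 10 with TMM factors, medians -0.35 and -0.43), and of the other types 7 of 26 rose and 11 fell (4 and 13 with TMM factors). PTPRU, found at cell contacts, stood at 103, 72.8 and 86.9 CPM in the siSHIP2 libraries, against 152, 159.7 and 158 CPM in the siCT libraries. PTPRF, which binds cadherin complexes, stood at 304, 236 and 257 CPM in the siSHIP2 libraries, against 436, 446 and 411 CPM in the siCT libraries. In both, siSHIP2 replicate 1 lay nearest to the siCT libraries without reaching them. PTPRQ (19.8 CPM with siSHIP2, 33.4 with siCT, log2 -0.74), PTPRD (1.166 CPM with siSHIP2, 2.58 with siCT, log2 -0.74) and the cytosolic phosphatase gene PTPN12 (132 CPM with siSHIP2, 218 with siCT, log2 -0.72) were lower, and PTPN21 (27.6 CPM with siSHIP2, 21.5 with siCT, log2 0.35), EYA3 (61.1 CPM with siSHIP2, 48 with siCT, log2 0.34) and PTPN6 (53.1 CPM with siSHIP2, 42.8 with siCT, log2 0.31) higher.

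Golgi glycosyltransferases build the sugar chains of secreted and membrane proteins. Of 70 tested 8 rose and 30 fell (6 and 35 with TMM factors), and their summed level was 2635 to 2938 CPM with siSHIP2 and 3453 to 3535 CPM with siCT, without overlap. Polypeptide GalNAc transferases, which start mucin-type O-glycans, had 2 of 12 higher and 8 lower (1 and 9 with TMM factors, medians -0.55 and -0.64). GALNT7 stood at 118, 90.1 and 91.2 CPM in the siSHIP2 libraries, against 188, 195 and 186 CPM in the siCT libraries. GALNT1 stood at 209, 128 and 164 CPM in the siSHIP2 libraries, against 270.5, 308 and 306 CPM in the siCT libraries. In each, the siSHIP2 values spread more than the siCT values and stayed below them. GALNT10 was lower too (84.1 CPM with siSHIP2, 151 with siCT, log2 -0.85), and GALNT4 higher (15.5 CPM with siSHIP2, 10.3 with siCT, log2 0.55). Of 13 sialyltransferases 0 rose and 5 fell (0 and 6), among these the ganglioside enzymes ST3GAL5, which makes GM3 (20 CPM with siSHIP2, 37.5 with siCT, log2 -0.88), and ST8SIA1, which makes GD3 from it (8.24 CPM with siSHIP2, 16.5 with siCT, log2 -0.94). FUT4, a fucosyltransferase gene (3.58 CPM with siSHIP2, 1.97 with siCT, log2 0.62), and MGAT5B (2.38 CPM with siSHIP2, 1.42 with siCT, log2 0.49) were higher, though MGAT5B was not called without siSHIP2 replicate 3 or siCT replicate 1. In the step before, translocon and N-glycosylation genes of the endoplasmic reticulum had 20 of 52 higher and 11 lower (13 and 13 with TMM factors). STT3B, a catalytic subunit of oligosaccharyltransferase, stood at 296, 207 and 247 CPM in the siSHIP2 libraries, against 531, 552 and 526 CPM in the siCT libraries. It was the member with the largest change (log2 -1.11, SE 0.0922, limma adjusted p = 1.03e-06). DPAGT1, which makes the first lipid-linked sugar (54.8 CPM with siSHIP2, 82.3 with siCT, log2 -0.58), and SRP72 (192 CPM with siSHIP2, 246 with siCT, log2 -0.36) fell. On the higher side were ALG5 (48.9 CPM with siSHIP2, 35 with siCT, log2 0.47), ALG10 (18.3 CPM with siSHIP2, 14.4 with siCT, log2 0.33) and ALG11 (26.3 CPM with siSHIP2, 21 with siCT, log2 0.31).

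Aldehyde dehydrogenases, which oxidize reactive aldehydes and retinal, had 2 of 14 higher and 8 lower (1 and 8 with TMM factors, and 1 higher without siSHIP2 replicate 2, siSHIP2 replicate 3 or siCT replicate 3). ALDH3A1, abundant in squamous epithelia and cornea, stood at 155, 142 and 164 CPM in the siSHIP2 libraries, against 328, 328 and 356 CPM in the siCT libraries. ALDH1A3, which makes retinoic acid, stood at 910.5, 866 and 861 CPM in the siSHIP2 libraries, against 1123, 1146 and 1149 CPM in the siCT libraries. Neither overlapped between the groups (log2 -1.13 and -0.37). ALDH3B1 (10.3 CPM with siSHIP2, 19 with siCT, log2 -0.83) and ALDH3B2 (1.2 CPM with siSHIP2, 2.77 with siCT, log2 -0.78), which are close relatives, and ALDH1A1 (10.4 CPM with siSHIP2, 17.3 with siCT, log2 -0.68) were lower, and ALDH6A1 of the mitochondrion was higher (10 CPM with siSHIP2, 6.31 with siCT, log2 0.60). Iron and heme genes had 8 of 47 higher and 18 lower, with 3 and 20 by TMM factors. The higher count was 4 without siCT replicate 1 and 5 without siCT replicate 2, siSHIP2 replicate 2 or siSHIP2 replicate 3. STEAP3, a reductase of endosomal iron, stood at 51.6, 35.2 and 38.2 CPM in the siSHIP2 libraries, against 85, 90.6 and 84.9 CPM in the siCT libraries. FECH, which inserts iron into heme, stood at 32.3, 29.1 and 31 CPM in the siSHIP2 libraries, against 57.8, 59.6 and 56.2 CPM in the siCT libraries. These fell without overlap, as did STEAP1 (0.733 CPM with siSHIP2, 2.81 with siCT, log2 -1.14), whereas HMOX2 (35.3 CPM with siSHIP2, 26 with siCT, log2 0.42), PPOX (10 CPM with siSHIP2, 7.28 with siCT, log2 0.41) and the ferritinophagy receptor gene NCOA4 (169 CPM with siSHIP2, 130.3 with siCT, log2 0.37) rose. TFRC, the transferrin receptor gene, was lower (730.2 CPM with siSHIP2, 899 with siCT, log2 -0.30). Metallothioneins and zinc transporters showed no common direction, with 8 of 24 higher and 10 lower (6 and 10). The zinc exporter genes SLC30A4 (3.35 CPM with siSHIP2, 1.15 with siCT, log2 1.018) and SLC30A1 (48 CPM with siSHIP2, 80.7 with siCT, log2 -0.74) changed in opposite directions, MT2A (35 CPM with siSHIP2, 48.8 with siCT, log2 -0.47) and MT1E (4.3 CPM with siSHIP2, 7.06 with siCT, log2 -0.62) fell and SLC39A5 (1.4 CPM with siSHIP2, 0.783 with siCT, log2 0.43) and MT1F (3.78 CPM with siSHIP2, 2.68 with siCT, log2 0.38) rose, although metallothionein genes are near-identical and MT1F was not called without siCT replicate 2.

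Families of pumps, tetraspanins, channels, calcium-binding proteins and myosins had more lower than higher genes with both scalings. Sodium-potassium and calcium pumps had 7 of 28 higher and 11 lower (4 and 14 with TMM factors). ATP1B3, a beta subunit of the sodium pump (91.7 CPM with siSHIP2, 169 with siCT, log2 -0.88), and the plasma membrane calcium pump genes ATP2B1 (103 CPM with siSHIP2, 166 with siCT, log2 -0.69) and ATP2B4 (41.7 CPM with siSHIP2, 66.3 with siCT, log2 -0.67) fell. Those that rose included ATP2A1 (3.86 CPM with siSHIP2, 2.182 with siCT, log2 0.60) and ATP8B4 (8.39 CPM with siSHIP2, 5.78 with siCT, log2 0.47). ATP8B4 was listed here but is no sodium-potassium or calcium pump. Tetraspanins, scaffolds of the membrane, had 6 of 26 higher and 10 lower (4 and 12), with TSPAN1 (25.4 CPM with siSHIP2, 47 with siCT, log2 -0.88), TSPAN33 (4.28 CPM with siSHIP2, 7.46 with siCT, log2 -0.68) and UPK1B (19.7 CPM with siSHIP2, 28.9 with siCT, log2 -0.55) lower and TSPAN10 (2.38 CPM with siSHIP2, 1.3 with siCT, log2 0.57) and TSPAN6 (103 CPM with siSHIP2, 85.1 with siCT, log2 0.28) higher. Potassium and TRP channel genes had 12 of 48 higher and 17 lower (11 and 19). KCNN4, a calcium-activated potassium channel of epithelium and immune cells, stood at 60.7, 42.4 and 55.9 CPM in the siSHIP2 libraries, against 104, 106 and 114 CPM in the siCT libraries, and KCNH8 at 3.25, 4.95 and 3.4 CPM in the siSHIP2 libraries, against 0.75, 0.55 and 0.75 CPM in the siCT libraries, each without overlap. KCNJ15 (8.84 CPM with siSHIP2, 18 with siCT, log2 -0.96) and KCNAB2 (2.21 CPM with siSHIP2, 4.36 with siCT, log2 -0.74) fell. KCND1 rose (2.17 CPM with siSHIP2, 0.833 with siCT, log2 0.75). S100 proteins and annexins, calcium binders common in squamous epithelium, had 4 of 23 higher and 9 lower (2 and 10). S100A1 rose (8.16 CPM with siSHIP2, 3.15 with siCT, log2 1.15), as did S100PBP, which encodes a binding partner and no S100 protein (39.5 CPM with siSHIP2, 25.6 with siCT, log2 0.61). S100A14 (19.4 CPM with siSHIP2, 35.2 with siCT, log2 -0.83), S100A3 (1.23 CPM with siSHIP2, 2.67 with siCT, log2 -0.71) and ANXA8, which has a close copy (31.9 CPM with siSHIP2, 54.5 with siCT, log2 -0.76), fell. Myosins and septins had 12 of 40 higher and 16 lower (10 and 19), and 7 higher without siCT replicate 1. MYO5B, a carrier of recycling endosomes (62.3 CPM with siSHIP2, 123 with siCT, log2 -0.97), SEPT9 (164 CPM with siSHIP2, 292 with siCT, log2 -0.83) and MYO10 of filopodia (102 CPM with siSHIP2, 178 with siCT, log2 -0.80) fell. Higher genes included MYO15B (4.3 CPM with siSHIP2, 1.33 with siCT, log2 1.168) and SEPT5 (7.78 CPM with siSHIP2, 3.05 with siCT, log2 1.12). CD37 (1.4 CPM with siSHIP2, 0.533 with siCT, log2 0.65), KCNS1 (1.03 CPM with siSHIP2, 0.367 with siCT, log2 0.57) and MYL9 (0.866 CPM with siSHIP2, 0.25 with siCT, log2 0.58) were called higher too, but they passed the filter through the siSHIP2 libraries alone. In all, 3 of the 12 higher myosin and septin genes, MYL9 included, passed it in this way.

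In several families of DNA repair and RNA processing the higher genes outnumbered the lower ones as deposited and not with TMM factors, as they did over all tested genes. DNA repair genes outside homologous recombination had 24 of 65 higher and 8 lower as deposited, but 12 and 16 with TMM factors, and 14 higher without siCT replicate 3. POLI, a translesion polymerase (19.2 CPM with siSHIP2, 9.69 with siCT, log2 0.92), ERCC5 (60 CPM with siSHIP2, 36.1 with siCT, log2 0.72) and POLB (50.1 CPM with siSHIP2, 30.4 with siCT, log2 0.70) were higher on both scales, and the glycosylase genes NTHL1 (11.3 CPM with siSHIP2, 16.7 with siCT, log2 -0.53) and NEIL3 (17.1 CPM with siSHIP2, 23.6 with siCT, log2 -0.45) and the ligase gene LIG3 (41.4 CPM with siSHIP2, 55.7 with siCT, log2 -0.42) lower on both. RNA modification enzymes had 22 of 59 higher and 12 lower (13 and 14), with METTL14 of the m6A writer higher (43.6 CPM with siSHIP2, 28.8 with siCT, log2 0.59), PUS10 (12.7 CPM with siSHIP2, 7.38 with siCT, log2 0.71) and NSUN3 (22.3 CPM with siSHIP2, 14.2 with siCT, log2 0.62) likewise, and the m6A reader gene YTHDF3 (65 CPM with siSHIP2, 103 with siCT, log2 -0.66), TRMT10A (7.66 CPM with siSHIP2, 11.9 with siCT, log2 -0.58) and DUS3L (23.9 CPM with siSHIP2, 31.8 with siCT, log2 -0.40) lower. DEAD and DEAH box helicases had 17 of 50 higher and 10 lower (12 and 17), with DHX40 (0.56), DDX28 (0.52) and DDX5 (0.49) highest and DHX8 (-0.62), DHX37 (-0.56) and DHX35 (-0.45) lowest in log2 change. Integrator and 3' end processing genes had 11 of 34 higher and 7 lower (9 and 13). The poly(A) polymerase gene PAPOLA stood at 229, 188 and 206 CPM in the siSHIP2 libraries, against 329, 338 and 326 CPM in the siCT libraries, without overlap. INTS13 (-0.42) and INTS1 (-0.40) fell by these log2 values, and INTS2 (0.47), CSTF2T (0.41) and INTS7 (0.41) rose.

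Chromatin remodellers had 20 of 48 higher and 12 lower (13 and 16 with TMM factors), with CHD6 (136 CPM with siSHIP2, 79.6 with siCT, log2 0.76), CHD2 (150.3 CPM with siSHIP2, 93.1 with siCT, log2 0.68) and DPF2 (111 CPM with siSHIP2, 73 with siCT, log2 0.60) higher and SMARCD2 (81.8 CPM with siSHIP2, 130.0 with siCT, log2 -0.66), SMARCA1 (20.8 CPM with siSHIP2, 30.9 with siCT, log2 -0.56) and CHD3 (178 CPM with siSHIP2, 255 with siCT, log2 -0.52) lower. Histone methyltransferases and demethylases had 20 of 57 higher and 15 lower (15 and 17). KDM7A, a demethylase of repressive marks, stood at 15.2, 17.7 and 14.5 CPM in the siSHIP2 libraries, against 6.15, 5.65 and 5.25 CPM in the siCT libraries. EZH1, of the Polycomb methyltransferase, stood at 40.8, 58.2 and 50.8 CPM in the siSHIP2 libraries, against 21.8, 23.9 and 24 CPM in the siCT libraries. Neither overlapped, and KDM5B was higher as well (98.5 CPM with siSHIP2, 58.9 with siCT, log2 0.73). The arginine methyltransferase genes PRMT1 (167 CPM with siSHIP2, 256 with siCT, log2 -0.61) and CARM1 (66.8 CPM with siSHIP2, 95.9 with siCT, log2 -0.52) and the lysine methyltransferase gene SETD7 (71.3 CPM with siSHIP2, 103 with siCT, log2 -0.53) fell. Cohesin and condensin genes had 7 of 30 higher and 9 lower (6 and 10), led by NSMCE2 (74.3 CPM with siSHIP2, 41.8 with siCT, log2 0.81), MAU2 (75.7 CPM with siSHIP2, 51.8 with siCT, log2 0.54) and NSMCE3 (15.3 CPM with siSHIP2, 10.6 with siCT, log2 0.49) on the high side and the cohesin subunit gene STAG2 (85.4 CPM with siSHIP2, 155 with siCT, log2 -0.86) and the condensin genes NCAPD3 (113 CPM with siSHIP2, 142 with siCT, log2 -0.33) and NCAPD2 (307 CPM with siSHIP2, 385 with siCT, log2 -0.33) on the low side. NSMCE2 and NSMCE3 were listed with them but are part of neither cohesin nor condensin. RNA polymerase subunits had 6 of 31 higher and 10 lower (5 and 11). POLR2A, the largest subunit of polymerase II (416 CPM with siSHIP2, 266 with siCT, log2 0.64), POLR2K (120.3 CPM with siSHIP2, 73.3 with siCT, log2 0.70) and POLR3GL (11.3 CPM with siSHIP2, 6.28 with siCT, log2 0.76) rose. Among the lower genes were POLR3K (15.7 CPM with siSHIP2, 26.5 with siCT, log2 -0.73), POLR2J, which has close copies (29.4 CPM with siSHIP2, 48.4 with siCT, log2 -0.70), and POLR1B (56.6 CPM with siSHIP2, 80.7 with siCT, log2 -0.51).

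Nuclear receptors, ligand-regulated transcription factors, had 13 of 33 higher and 14 lower (11 and 15 with TMM factors), but held some of the larger rises. NR4A2, an orphan receptor and early response gene, stood at 7.4, 10 and 7.74 CPM in the siSHIP2 libraries, against 1.4, 1.75 and 1.249 CPM in the siCT libraries. NR4A1, its relative, stood at 13, 17.9 and 16.3 CPM in the siSHIP2 libraries, against 6.1, 5 and 4.55 CPM in the siCT libraries. NR3C2, the mineralocorticoid receptor gene, stood at 8.39, 11 and 6.94 CPM in the siSHIP2 libraries, against 2.3, 2.9 and 2.85 CPM in the siCT libraries. In all 3 the groups were apart (limma adjusted p = 2.54e-07, 1.34e-06 and 4.83e-06). NR1H3, the oxysterol receptor LXR alpha (12 CPM with siSHIP2, 18.9 with siCT, log2 -0.62), the vitamin D receptor gene VDR (46 CPM with siSHIP2, 67.8 with siCT, log2 -0.55) and HNF4G (2.7 CPM with siSHIP2, 4.26 with siCT, log2 -0.51) fell.

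In translation, initiation and elongation factors had 16 of 53 higher and 15 lower (9 and 20 with TMM factors). PDCD4, which blocks the helicase eIF4A, stood at 68.4, 77.8 and 73 CPM in the siSHIP2 libraries, against 21.6, 26.9 and 25.5 CPM in the siCT libraries. EIF4A1, a gene of that helicase, stood at 529.5, 459 and 514 CPM in the siSHIP2 libraries, against 856, 790.1 and 818 CPM in the siCT libraries. PDCD4 thus rose and EIF4A1 fell, both without overlap (log2 1.53 and -0.71). EIF4A2, a further eIF4A gene, rose on both scales (432 CPM with siSHIP2, 322 with siCT, log2 0.43), so the eIF4A genes went opposite ways. EIF1B (70.9 CPM with siSHIP2, 43.3 with siCT, log2 0.70) and EIF4E3 (4.95 CPM with siSHIP2, 2.87 with siCT, log2 0.62) were higher, and EEF1A2 (32.1 CPM with siSHIP2, 51.6 with siCT, log2 -0.67) and EEF2K (30 CPM with siSHIP2, 43.3 with siCT, log2 -0.52) lower. Aminoacyl-tRNA synthetases had 16 of 40 higher and 13 lower (13 and 13). Cytosolic enzymes and their scaffold had 11 of 23 higher and 6 lower, and mitochondrial enzymes 5 of 17 higher and 7 lower. Of the cytosolic genes CARS (97.8 CPM with siSHIP2, 64.5 with siCT, log2 0.59) and GARS (348 CPM with siSHIP2, 234 with siCT, log2 0.57), which also serves mitochondria, rose and IARS fell (186 CPM with siSHIP2, 271 with siCT, log2 -0.55), and of the mitochondrial genes TARS2 rose (54.1 CPM with siSHIP2, 35.9 with siCT, log2 0.58) and EARS2 fell (38.5 CPM with siSHIP2, 63.8 with siCT, log2 -0.72). The chaperonin TRiC and prefoldin genes had 10 of 22 higher and 6 lower (4 and 8), with TBCC (0.69), PFDN1 (0.30) and PFDN5 (0.29) higher and CCT7 (-0.54), URI1 (-0.26) and CCT5 (-0.18) lower in log2 change. TBCC was listed here as a tubulin folding cofactor and is no subunit of TRiC or prefoldin.

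Ubiquitin-conjugating enzymes had 12 of 32 higher and 11 lower (10 and 15 with TMM factors). UBE2V2, a partner of UBE2N in lysine 63 chains (99.8 CPM with siSHIP2, 188 with siCT, log2 -0.91), UBE2E3 (54.4 CPM with siSHIP2, 81.3 with siCT, log2 -0.57) and UBE2S (69.1 CPM with siSHIP2, 96.1 with siCT, log2 -0.47) fell. On the higher side were UBE2W (63 CPM with siSHIP2, 40.5 with siCT, log2 0.62), UBE2H (186 CPM with siSHIP2, 133 with siCT, log2 0.48) and UBE2B (104 CPM with siSHIP2, 76.1 with siCT, log2 0.44). Deubiquitinases of the USP and OTU families had 26 of 58 higher and 10 lower (18 and 14). USP49 (19.6 CPM with siSHIP2, 9.98 with siCT, log2 0.89) and the NF-kappaB inhibitors TNFAIP3 (4.28 CPM with siSHIP2, 2.02 with siCT, log2 0.79) and CYLD (27.9 CPM with siSHIP2, 17.1 with siCT, log2 0.67) were higher, and USP13 (30.3 CPM with siSHIP2, 48.1 with siCT, log2 -0.67), USP9X (95.9 CPM with siSHIP2, 145 with siCT, log2 -0.59) and USP12 (56.1 CPM with siSHIP2, 78.3 with siCT, log2 -0.47) lower. COPI and COPII coat genes, which serve traffic between the endoplasmic reticulum and the Golgi, had 14 of 41 higher and 13 lower (9 and 15), and the largest change was that of SEC24D (36.5 CPM with siSHIP2, 53.1 with siCT, log2 -0.53). COPB1 (-0.39) and SEC24A (-0.36) fell, and COPG2 (0.42), ARF5 (0.42) and TMED9 (0.41) rose, again as log2 changes.

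Metabolic families other than nucleotide synthesis were split. Genes of the TCA cycle and pyruvate entry had 13 of 41 higher and 15 lower (9 and 19 with TMM factors). CS, the citrate synthase that opens the cycle, stood at 290.1, 248 and 272 CPM in the siSHIP2 libraries, against 400.3, 409.8 and 391.8 CPM in the siCT libraries. It was lower in every siSHIP2 library than in any siCT library, and GOT2 fell too (169.8 CPM with siSHIP2, 240.2 with siCT, log2 -0.50), while the regulators of pyruvate dehydrogenase PDP1 (86.9 CPM with siSHIP2, 52.8 with siCT, log2 0.71) and PDK1 (15.8 CPM with siSHIP2, 10.5 with siCT, log2 0.54) and the isocitrate dehydrogenase subunit IDH3B (88.2 CPM with siSHIP2, 62.2 with siCT, log2 0.49) rose. Fatty acid oxidation had 10 of 38 higher and 15 lower (9 and 19), with BDH2 (22.1 CPM with siSHIP2, 12 with siCT, log2 0.84), ACADSB (9.78 CPM with siSHIP2, 5.5 with siCT, log2 0.73) and ACADL (1.76 CPM with siSHIP2, 0.849 with siCT, log2 0.56) higher and ACSL5 (60.3 CPM with siSHIP2, 105 with siCT, log2 -0.79) and the coactivator gene PPARGC1B (11.1 CPM with siSHIP2, 19.4 with siCT, log2 -0.77) lower. Mitochondrial import had 15 of 45 higher and 15 lower (8 and 18). The protease gene CLPP (17.3 CPM with siSHIP2, 29.4 with siCT, log2 -0.74), TOMM34 (112 CPM with siSHIP2, 184 with siCT, log2 -0.72) and TOMM40, the import pore (127 CPM with siSHIP2, 188 with siCT, log2 -0.56), fell, and GRPEL2 (45.5 CPM with siSHIP2, 31.2 with siCT, log2 0.53), TIMM17B (33 CPM with siSHIP2, 24.3 with siCT, log2 0.42) and TOMM6 (142 CPM with siSHIP2, 107 with siCT, log2 0.40) rose. Peroxisomal genes had 16 of 39 higher and 8 lower (11 and 8), with 4 lower without siCT replicate 2 and 5 without siSHIP2 replicate 2. ACOT8 (56.2 CPM with siSHIP2, 34.5 with siCT, log2 0.69) and PHYH (51.1 CPM with siSHIP2, 32.6 with siCT, log2 0.63) rose and PXMP2 fell (14.4 CPM with siSHIP2, 26.6 with siCT, log2 -0.85). CRAT (4.6 CPM with siSHIP2, 6.66 with siCT, log2 -0.46) and PXMP4 (2.1 CPM with siSHIP2, 3.13 with siCT, log2 -0.43) were lower with all 6 libraries and not called when siSHIP2 replicate 2 or siCT replicate 2 was left out, nor, for PXMP4, without siCT replicate 1.

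Lipid genes were divided as well. Sphingolipid metabolism had 14 of 40 higher and 11 lower (11 and 14 with TMM factors). CERK, which phosphorylates ceramide, stood at 35.4, 27.5 and 31.4 CPM in the siSHIP2 libraries, against 72.9, 77.2 and 72.8 CPM in the siCT libraries. SMPD1, the lysosomal sphingomyelinase gene, stood at 22.7, 28.3 and 26.9 CPM in the siSHIP2 libraries, against 12.4, 12.5 and 12.3 CPM in the siCT libraries. The groups lay apart in both. The sphingosine phosphate receptor gene S1PR2 (7.36 CPM with siSHIP2, 3.13 with siCT, log2 1.018) and SGPL1, a lyase of sphingosine phosphate (177 CPM with siSHIP2, 115 with siCT, log2 0.62), rose, and the lipid phosphatase gene PLPP3 (15.2 CPM with siSHIP2, 30.2 with siCT, log2 -0.97) and UGT8 (26.8 CPM with siSHIP2, 39.4 with siCT, log2 -0.55) fell. Glycerophospholipid synthesis and phospholipases had 21 of 68 higher and 24 lower (14 and 25). PLA2G4A, which releases arachidonate (9.11 CPM with siSHIP2, 18.2 with siCT, log2 -0.93), and the phospholipase C genes PLCE1 (19.4 CPM with siSHIP2, 32.4 with siCT, log2 -0.72) and PLCB3 (52.3 CPM with siSHIP2, 86.3 with siCT, log2 -0.71) fell. Those that rose included ETNK1 (152 CPM with siSHIP2, 106 with siCT, log2 0.52), DGKQ (18.9 CPM with siSHIP2, 13.4 with siCT, log2 0.46) and PGS1 (29.2 CPM with siSHIP2, 21.3 with siCT, log2 0.43).

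Among signalling families, kinases of the MAP kinase cascades had 20 of 64 higher and 23 lower (14 and 28 with TMM factors). RPS6KA1, a kinase activated by ERK, stood at 42.1, 33.3 and 40.3 CPM in the siSHIP2 libraries, against 81.1, 77.6 and 76.4 CPM in the siCT libraries. MAPK3, the gene of ERK1, stood at 21, 17.8 and 19.8 CPM in the siSHIP2 libraries, against 32.6, 34.6 and 36 CPM in the siCT libraries. Both fell without overlap, and so did MAPK15 (16.3 CPM with siSHIP2, 28 with siCT, log2 -0.76), while MAP2K5 (15.6 CPM with siSHIP2, 9.44 with siCT, log2 0.67), RPS6KA5 (15.9 CPM with siSHIP2, 9.66 with siCT, log2 0.66) and TAOK1 (193 CPM with siSHIP2, 123 with siCT, log2 0.65) rose. Wnt pathway genes had 15 of 59 higher and 20 lower (9 and 24). Of the higher genes 2 passed the filter through the siSHIP2 libraries alone, and of the lower genes 1 through the siCT libraries alone. TCF7, a transcription factor of the pathway (8.09 CPM with siSHIP2, 17.9 with siCT, log2 -1.08), PORCN, which acylates Wnt ligands (16.8 CPM with siSHIP2, 28.9 with siCT, log2 -0.75), and the ligand gene WNT7B (58.8 CPM with siSHIP2, 92.9 with siCT, log2 -0.66) fell. The rises included those of the corepressor gene TLE4 (17.3 CPM with siSHIP2, 9.04 with siCT, log2 0.86), WNT2B (2.02 CPM with siSHIP2, 1.13 with siCT, log2 0.51) and the receptor gene FZD3 (36.3 CPM with siSHIP2, 25.5 with siCT, log2 0.49). AMPK, its relatives and their regulators had 13 of 33 higher and 6 lower (9 and 10). The sestrin genes SESN3 (9.06 CPM with siSHIP2, 3.38 with siCT, log2 1.21) and SESN2 (34 CPM with siSHIP2, 18.8 with siCT, log2 0.81), whose proteins restrain mTORC1, rose, with SNRK (29 CPM with siSHIP2, 18.6 with siCT, log2 0.61), and CAB39L (11.1 CPM with siSHIP2, 18.4 with siCT, log2 -0.68), CAMKK1 (4.11 CPM with siSHIP2, 6.33 with siCT, log2 -0.52) and PRKAG2 (17.3 CPM with siSHIP2, 24 with siCT, log2 -0.45) fell. Subunits of PP1, PP2A and PP4 to PP6 had 27 of 67 higher and 22 lower (19 and 25). PPP1R15A, which reverses the phosphorylation of eIF2 alpha (124 CPM with siSHIP2, 64.6 with siCT, log2 0.92), the PP2A subunit gene PPP2R5B (11.6 CPM with siSHIP2, 4.53 with siCT, log2 1.18) and PPP1R3D (25.7 CPM with siSHIP2, 14.2 with siCT, log2 0.82) rose. Those that fell included the catalytic gene PPP1CC (108 CPM with siSHIP2, 198 with siCT, log2 -0.88), PPP6R1 (115 CPM with siSHIP2, 185 with siCT, log2 -0.67) and PPP1R7 (37 CPM with siSHIP2, 57 with siCT, log2 -0.61).

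Non-coding genes took part in the change in both directions. Of 840 tested lincRNA genes 186 rose and 87 fell (143 and 112 with TMM factors). Of 2076 antisense genes 476 rose and 308 fell (348 and 400), of 497 processed pseudogenes 71 and 26 (50 and 37), of 191 miRNA loci 24 and 20 (18 and 26) and of 152 snoRNA genes 8 and 11 (5 and 16). Of the higher genes, 39 lincRNA and 65 antisense genes passed the filter through the siSHIP2 libraries alone. Short RNAs are poorly held by such libraries, and their loci often lie in introns of other genes. For comparison, 5028 of 13741 protein-coding genes rose and 3359 fell (3765 and 4252).

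OSER1-AS1 stood at 7.05, 9.7 and 9.64 CPM in the siSHIP2 libraries, against 2.9, 2.75 and 2.95 CPM in the siCT libraries. The other long non-coding genes with the largest rises were CHMP1B-AS1 (72.4 CPM with siSHIP2, 28.8 with siCT, log2 1.301), APOBEC3B-AS1 (25.9 CPM with siSHIP2, 11.4 with siCT, log2 1.13), U73166.1 (3.36 CPM with siSHIP2, 1.08 with siCT, log2 1.06) and LINC00174 (23.5 CPM with siSHIP2, 10.9 with siCT, log2 1.03). All 1338 bases of CHMP1B-AS1 overlap CHMP1B, which rose by log2 1.38, on the other strand. APOBEC3B-AS1 overlaps APOBEC3A and APOBEC3B in the same way, and 44500 bases of LINC00174 overlap TPST1. On the lower side were ANO1-AS1 (5.11 CPM with siSHIP2, 12.8 with siCT, log2 -1.21), SNHG22 (6.34 CPM with siSHIP2, 14.9 with siCT, log2 -1.11), SNHG26 (4.25 CPM with siSHIP2, 9.91 with siCT, log2 -1.06), LINC01843 (2.68 CPM with siSHIP2, 6.21 with siCT, log2 -0.99) and NKILA, known as an inhibitor of NF-kappaB (12.2 CPM with siSHIP2, 25 with siCT, log2 -0.99). ANO1-AS1 lies over 722 bases of the chloride channel gene ANO1, which fell by the same log2 -1.21, SNHG22 over 28247 bases of MYO5B (log2 -0.97), and NKILA over 1354 bases of PMEPA1 (log2 -0.27). Where genes overlap on opposite strands their reads cannot be told apart. LINC00174 and LINC01843 did not pass the test against 1.5-fold.

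The same siRNA in KYSE-30 gave a smaller change of INPPL1, and the response of the leading KYSE-410 genes differed between the lines. INPPL1 stood at 23.2 and 24.5 CPM in the siSHIP2 libraries of KYSE-30, against 39.9 and 36.2 CPM in the siCT libraries, a log2 change of -0.65. The difference between the lines was tested by limma over all 10 libraries (KYSE-410 minus KYSE-30, adjusted over 20466 genes), and 6627 genes, or 32.4%, passed in either direction. All 13 genes examined passed, namely INPPL1 and the first 6 in each direction, with the largest adjusted p at 0.000506 (limma). TP53INP1 was at 3.40 and 5.65 CPM with siSHIP2, against 8.54 and 5.8 CPM with siCT in KYSE-30. Its log2 change was 2.52 in KYSE-410 and -0.58 in KYSE-30, where it had no call (limma adjusted p = 0.1). IL1A was at 8.24 and 7.70 CPM with siSHIP2, against 7.69 and 9.64 CPM with siCT in KYSE-30, where it had no call (log2 -0.10, limma adjusted p = 0.811). EGR3, KRT5, FYB1 and AKR1B15 did not exceed 0.3 CPM in any KYSE-30 library, so a fall there could hardly be seen. The 13 genes were chosen for their change in KYSE-410, and the lines also differ in how far INPPL1 fell, so the differences cannot be told apart from the choice or from the depth of the knockdown.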

How the data were processed

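RNA of human KYSE-410 and KYSE-30 cells was extracted with a column kit and made into Ovation Solo libraries, per the labels' protocols. The authors deposited CPM values per gene; the alignment tool STAR 2.5.3a, the counter HTSeq and the build hg38 stand in the submitters' processing notes. Use of strand in counting is not given in the sources used here. The deposited CPM values of all 10 libraries sit on steps of about 0.05 CPM (100% of values up to 60 CPM within 0.00056 CPM), as whole counts would in libraries of equal total; that the authors scaled the libraries to this total is inferred from the values and stated by no source. Sequencing depth is therefore unknown, and precision rests on the replicates.

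From these values log2(CPM + 1) was tested by limma 3.58.1 with an intensity trend (R 4.3.3), siSHIP2 against siCT in the 6 KYSE-410 libraries, for genes at 0.5 CPM or more in 2 libraries, with Benjamini-Hochberg adjustment over all tested genes and a threshold of 0.05. A count model had been planned in case the table held counts. TMM, relative log and upper quartile factors came from edgeR 4.0.16 applied to CPM. edgeR's quasi-likelihood test and DESeq2 1.42.0 were run on the recovered whole numbers as alternatives only. The difference between the lines was a contrast in a limma fit of all 10 libraries. The limma code was tested on simulated data. Of 58302 genes, 20208 were at 0 in all 10 libraries, and 58039 matched GENCODE 29 by gene ID. Promoters were RefSeq's (GRCh38.p14), searched for exact matches on both strands with Python 3.11.15.

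The comparison, its gene families and its lists were chosen with earlier results of these data known. Named genes were INPPL1 and, in each direction, the 15 protein-coding genes with the largest change that met the criteria. These were a mean of 5 CPM or more over the 6 libraries, a call on both scales, no overlap and no naming in an earlier description. Long non-coding genes, 5 per direction, met the same criteria at a mean of 2 CPM or more. Each list gave up to 3 members per direction that were called on both scales. Other members named for their role, and the division of lists into roles, were chosen after values were seen. Alternatives were the scaling, pseudocount, filter, tool, replicate block, a test against 1.5-fold and leaving out each library. A few members and families counted or fitted with the rest are not reported by name here.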

Additional observations from a re-analysis of the deposited data

Results flagged for a closer look

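The response to siSHIP2 differed between the lines for all 13 genes examined (KYSE-410 minus KYSE-30, interaction contrast of limma over 10 libraries, adjusted over 20466 genes). Among all genes tested in this way 6627, or 32.4%, passed. INPPL1 itself fell further in KYSE-410, with a difference in log2 change of -0.75 (limma adjusted p = 7.63e-05). For the genes that led the rise in KYSE-410 the differences were 2.93 for EGR3, 2.63 for FOSB, 3.10 for TP53INP1, 2.15 for MEX3B, 2.52 for ABTB1 and 1.68 for BACH2. For those that led the fall they were -1.79 for KRT5, -1.37 for FYB1, -1.50 for AKR1B15, -1.755 for IL1B, -1.36 for IL1A and -1.54 for GPX3. Each also passed with TMM factors, with the replicate block and without any 1 of the 10 libraries. The genes had been picked by their change in KYSE-410, and KYSE-30 has 2 libraries per group. In KYSE-30, EGR3, KRT5, FYB1 and AKR1B15 did not exceed 0.3 CPM in any library, and MEX3B and IL1B did not exceed 0.9 CPM. The differences of these genes therefore rest mostly on the change in KYSE-410 by which they were picked.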

How the results depend on the processing

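The log2 change of INPPL1 kept its direction and call under every alternative, from -1.51 with edgeR to -1.35 without siSHIP2 replicate 2 among those run. The 10168 calls were 9697 with TMM, 9668 with relative log and 10001 with upper quartile factors, 7641 with a filter of 10 CPM, 9484 without a filter, 10147 with a pseudocount of 0.1, 9695 by edgeR and 8105 by DESeq2, which called 3756 higher. The test against 1.5-fold called 471, of which 279 were higher and 192 lower, since it asks for a larger change. Leaving out 1 library gave 8543 to 10639 calls, 5148 to 6457 higher and 3385 to 4182 lower.

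Same-numbered siSHIP2 and siCT libraries deviated together by correlations of 0.0425, -0.172 and 0.097, and differently numbered ones by -0.267 to 0.259. With deviations taken within groups of 3, such values cannot decide whether the numbers pair the libraries. The fit with a replicate block called 9866 genes, or 9507 with TMM factors. No named gene reversed its direction, while family medians near 0, such as that of nucleoporins (0.01 as deposited and -0.07 with TMM factors), changed sign. Of 365 named genes 355 kept their call under all alternatives that tested them other than the 1.5-fold test. A call with TMM factors was a condition for naming them, so that alternative could not remove any. Of 112 family counts 27 moved by over 1.5 times with TMM factors, 3 with upper quartile factors, 38 by DESeq2 and 1 with the block, while 53 of 56 family medians moved by more than 1 SD between replicates with TMM factors and 52 by edgeR and by DESeq2; the causes were not tested. Genes under about 0.15 CPM are at the limit of these values.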
